A study of Mus musculus with 6 samples.

Results

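The inhibitor of DNA binding genes Id1, Id2, Id3 and Id4 and the signal transducer genes Smad1, Smad3, Smad4, Smad6, Smad7 and Smad9 were examined in mouse aortas with and without Prdm16 in smooth muscle cells. The 10 genes were found by symbol in a deposited table of 55487 genes, and all 10 were among the 16565 genes that were tested. Each had at least 578 counts in every library, so no member passed the filter on low counts through 1 group alone. In iSM KO aortas Id1 and Id4 were lower and Smad1 was higher past the threshold, and the other 7 genes did not pass it. Id1 was at 49.0% of its control level (log2 fold change -1.03), Id4 at 58.2% (-0.78) and Smad1 at 138% (0.47). Only the call of Id4 held with each of the 6 libraries left out in turn.

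Aortas of 3 Prdm16 SMC-specific KO mice, here iSM KO, and 3 WT mice, here controls, were profiled by bulk RNA-seq at baseline after the adventitia had been cleaned off. All 6 mice were males on a C57BL/6 background that carried the Myh11-CreERT2 transgene, which drives an inducible Cre in smooth muscle cells and sits on the Y chromosome. The iSM KO mice were homozygous for a Prdm16 allele with exon 9 flanked by loxP sites, and the controls came from the same kind of cross and were homozygous for the wild-type allele. Mice of both groups were given 1 mg of tamoxifen per day on 10 days from 8 weeks of age, and the aortas were taken after a washout of 2 weeks and 60 days more. The Myh11 driver targets smooth muscle cells, while the RNA came from all cells left in the wall.

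BMP ligands act through receptor kinases that phosphorylate SMAD1, SMAD5 and SMAD9, and TGF-β through receptors that phosphorylate SMAD2 and SMAD3. These receptor-regulated SMADs enter the nucleus with the common partner SMAD4, while SMAD6 and SMAD7 are inhibitory SMADs that are themselves induced by the pathway and limit it. ID proteins carry a helix-loop-helix domain without a DNA-binding region and hold E proteins and other basic helix-loop-helix factors away from DNA, and Id1, Id2 and Id3 are widely used as readouts of BMP signalling. SMAD3 variants are known from familial thoracic aortic aneurysm, and SMAD6 variants from bicuspid aortic valve.

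Library totals ranged from 24911609 to 40460467 counts, lowest in control 3. That library also had the smallest share of protein-coding counts, 59.0% against 64.6% to 67.6% in the others. Its share of the small RNAs Rn7s1, Rn7s2 and Rn7sk was the largest, 28.1% against 22.8% to 25.2%. Levels are in CPM, counts scaled to a common library size by edgeR with TMM factors. Prdm16 itself, the targeted gene, averaged 195 CPM (SD 24.5) across controls and 95.4 CPM (SD 16.5) across iSM KO libraries without overlap, though counts over the whole gene do not single out exon 9. Smooth muscle markers were the most abundant of the marker lists, with summed levels of 22497 to 27515 CPM in controls and 24270 to 26744 CPM in iSM KO libraries. Of all genes tested, 7.56% had a false discovery rate (FDR) under 0.05, 2.78% also had a fold change over 2, and 27.9% had groups that did not overlap. Against these shares stood 3, 1 and 4 of the 10 members. The 1 member past a fold change of 2 was lower, where 1.38% of all genes were, and 0 members were higher, where 1.40% were.

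Upstream windows are shown for members whose RefSeq start site has the preceding 250 bases free, wholly or in part, of annotated exons, and which the results below turn on. Id4 fell, Smad1 rose and Smad9, a receptor-regulated SMAD of the same BMP branch as Smad1, had a value below 0. Sequences are from RefSeq on GRCm38.p6 and are written 5′ to 3′ on the strand of the gene, with capitals marking the word GGCGCC, which is known from BMP-responsive elements.
Id4 (chr13:48260866-48261115, plus strand): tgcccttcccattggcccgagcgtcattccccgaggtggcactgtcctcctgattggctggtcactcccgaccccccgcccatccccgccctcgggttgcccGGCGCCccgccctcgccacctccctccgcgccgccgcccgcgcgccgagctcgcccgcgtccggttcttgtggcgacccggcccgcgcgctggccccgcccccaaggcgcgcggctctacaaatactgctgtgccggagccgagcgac
Smad9 (chr3:54755332-54755581, plus strand): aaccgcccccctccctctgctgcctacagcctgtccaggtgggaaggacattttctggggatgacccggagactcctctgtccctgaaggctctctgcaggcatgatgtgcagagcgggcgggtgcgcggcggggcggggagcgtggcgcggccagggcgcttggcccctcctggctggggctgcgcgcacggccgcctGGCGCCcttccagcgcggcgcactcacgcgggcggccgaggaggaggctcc
Smad1 (chr8:79399519-79399678, minus strand): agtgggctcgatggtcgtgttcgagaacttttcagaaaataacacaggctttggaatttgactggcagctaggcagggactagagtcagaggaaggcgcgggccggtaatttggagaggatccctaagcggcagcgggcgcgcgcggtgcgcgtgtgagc

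The Smad1 window is cut to 160 bases because the other 90 lie in a Smad1 exon of the GENCODE annotation. The word GGCGCC, which reads the same on both strands, stood once each in the 250 bases of Id2, Id4 and Smad9 and was not in those of Id3, Smad1, Smad3 or Smad6. In all, 9.59% of 32851 RefSeq promoters held it within the same 250 bases. The SMAD-binding word CAGAC, sought on both strands like all these words, stood at 2 places in the window of Id3 alone among these 7 members, against 42.2% of all promoters with at least 1. Both places lie in Id3 exons of the GENCODE annotation, as do all 250 bases of the Id3 window. In the Id2 window 161 of the 250 bases lie in Id2 exons. The palindrome GTCTAGAC (0.167% of promoters), the cyclic AMP response element TGACGTCA (1.55%) and the TATA word TATAAA (12.4%) were in none of the 7 windows. An E-box CANNTG, the kind of site that E proteins bind, was in the windows of Id2 and Smad9, against 66.2% of all promoters. All 7 windows were GC-rich, from 62.8% in Id2 and Id3 to 75.6% in Id4, beside a median of 52.4% over all promoters. Windows of Id1, Smad4 and Smad7 were not analysed here.

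Id1, the Id gene most often read as a BMP target, lies on chromosome 2 from 152736251 to 152737410 (plus strand, GRCm38). Its level was 54.6, 92.1 and 106 CPM in controls 1 to 3 and 54.0, 32.6 and 36.8 CPM in iSM KO libraries 1 to 3. The groups did not overlap, but control 1 and iSM KO 1 lay within 1 CPM of each other, and the other 2 libraries of each group were far apart. The log2 fold change was -1.03 (standard error 0.25, 95% interval -1.60 to -0.46, FDR = 0.0401 from edgeR's quasi-likelihood test). It was the single member past both the FDR and the fold change of 2, but with 1 library left out the FDR was under 0.05 in 2 of 6 fits and reached 0.156. Fewer cells that express a gene and less RNA per cell cannot be told apart in bulk libraries, here and for every gene below.

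Id4 had the smallest p of the 10 members. It lies on chromosome 13 from 48261228 to 48266026. It was at 50.8, 42.9 and 58.0 CPM in controls 1 to 3 and at 30.5, 31.4 and 26.3 CPM in iSM KO libraries 1 to 3. Every iSM KO library was well below the lowest control, control 2. The log2 fold change was -0.78 (standard error 0.12, 95% interval -1.05 to -0.51, FDR = 0.00560), and the FDR stayed under 0.05 whichever of the 6 libraries was omitted. Id4 shares 110 bases at 100% identity with Gm49291, a noncoding gene on the opposite strand, but that gene had 10 to 43 counts against 959 to 1701 for Id4.

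Id3 is on chromosome 4 from 136143497 to 136145755, 18.2 Mb from Prdm16, the locus that differs between the groups by design. It was at 116, 126 and 145 CPM in controls 1 to 3 and at 112, 80.7 and 77.6 CPM in iSM KO libraries 1 to 3. Here too the groups did not overlap, and iSM KO 1 was almost level with control 1. The log2 fold change of -0.52 (95% interval -0.85 to -0.18) had an FDR of 0.0695 and so missed the threshold. With 1 library left out the FDR ran from 0.0154, without iSM KO replicate 1, to 0.249 and was under 0.05 in 1 of 6 fits. Over the 9 other alternatives it ran from 0.00666 to 0.127 and was under 0.05 in 3.

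Id2, an Id gene with broad expression in adult tissues, is on chromosome 12 from 25093799 to 25097140. Its levels were 84.9, 74.0 and 67.6 CPM in controls and 70.1, 69.1 and 56.2 CPM in iSM KO libraries, and the groups overlapped. The log2 fold change was -0.21 (95% interval -0.47 to 0.04, FDR = 0.308), which leaves room for a level between 72.2% and 103% of control. Whether Id2 differed less than Id1 or Id4 was not tested. The median log2 fold change over the 4 Id genes was -0.65, beside -0.014 over all genes tested.

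**Figure D1:**
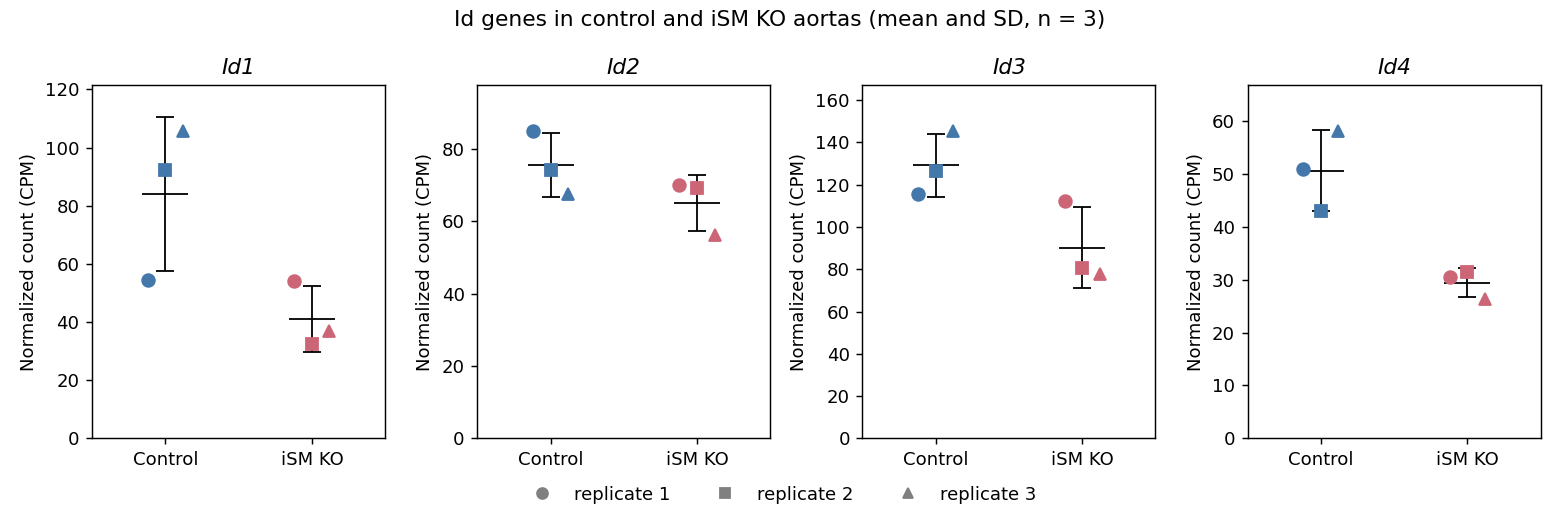
Normalized counts (CPM, linear axis from 0) of the 4 Id genes in 3 control and 3 iSM KO aortas, with 1 point per library and the mean and SD as bars. The groups of Id1, Id3 and Id4 do not overlap, but those of Id1 and Id3 nearly meet at control 1 and iSM KO 1, while Id4 is separated and Id2 overlaps.

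The spread among mice is given for each Id gene without a test. The coefficient of variation of Id1 was 31.4% among controls and 27.7% among iSM KO libraries, that of Id2 was 11.6% and 11.9%, that of Id3 was 11.6% and 21.2%, and that of Id4 was 15.0% and 9.35%. Id1 and Id3 put the libraries in the same order within the controls, with control 1 lowest and control 3 highest, and both were highest in iSM KO 1. Id2 went the other way among controls, highest in control 1 and lowest in control 3.

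Smad1, a receptor-regulated SMAD of the BMP branch, was the member that rose past the threshold. It lies on chromosome 8 from 79338395 to 79399518 (minus strand). It was at 27.8, 25.8 and 24.2 CPM in controls 1 to 3 and at 39.8, 34.9 and 33.0 CPM in iSM KO libraries 1 to 3. All iSM KO libraries were above all controls, and the lowest of them exceeded the highest control by more than the range of the controls. The log2 fold change was 0.47 (standard error 0.10, 95% interval 0.25 to 0.69, FDR = 0.0218). The FDR was 0.0651 without Control replicate 3, 0.0873 without iSM KO replicate 1 and 0.0843 without iSM KO replicate 2, with log2 fold changes of 0.42, 0.38 and 0.48.

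Smad9, also a substrate of BMP receptors, is on chromosome 3 from 54755582 to 54801257. It was at 37.3, 36.9 and 31.9 CPM in controls and at 30.4, 32.0 and 28.8 CPM in iSM KO libraries, and only control 3 reached into the range of the iSM KO group. Its log2 fold change was -0.22 (95% interval -0.42 to -0.014) with an FDR of 0.197. Smad5, the remaining substrate of this branch, averaged 51.0 ± 0.65 CPM across controls and 49.2 ± 1.98 across iSM KO (SD, n = 3 each, edgeR FDR = 0.705).

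Levels of different genes were compared per kb of merged exon. In controls Smad1 made up 23.2% to 24.2% of the summed Smad1, Smad5 and Smad9 level per kb, and in iSM KO libraries 30.6% to 33.6%. The share of Smad9 was 35.5% to 38.7% in controls and 30.03% to 32.8% in iSM KO libraries. The sum of the 3 genes overlapped between groups, at 16.7 to 18.3 CPM per kb for controls and 16.97 to 18.9 for iSM KO libraries. In controls Smad9 was above Smad1 per kb in 3 of 3 libraries, and in iSM KO libraries the log2 ratio of Smad1 to Smad9 lay between -0.10 and 0.16.

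**Figure D2:**
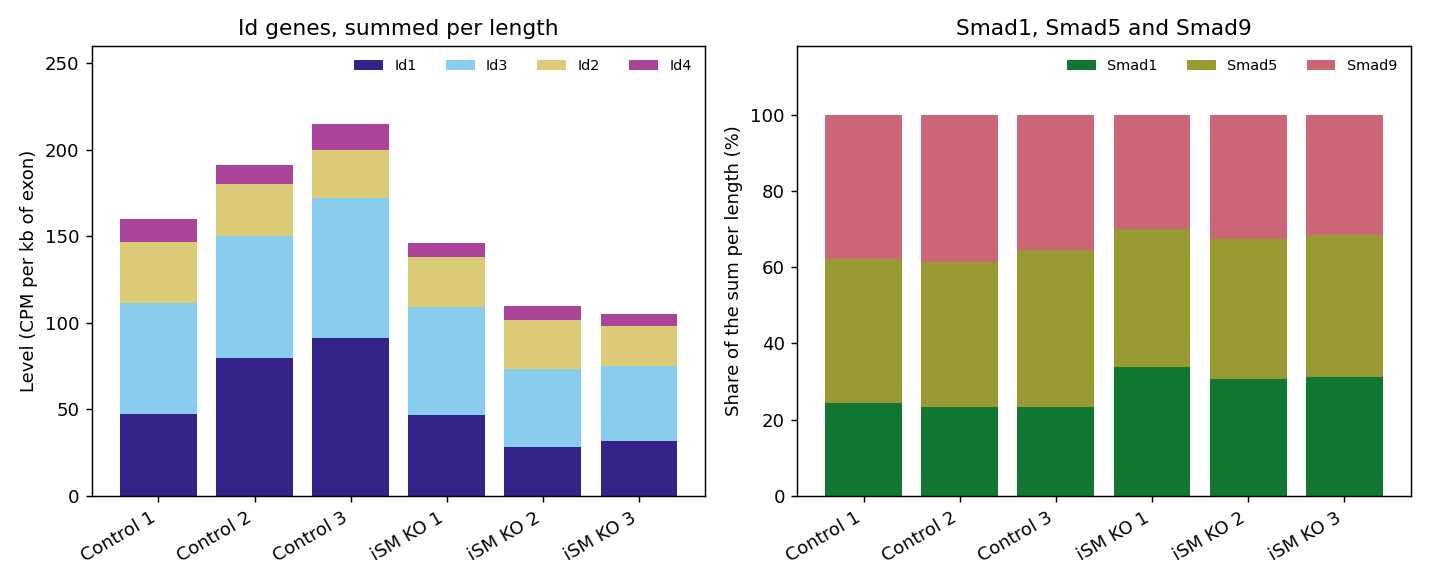
Left, the level per kb of exon of the 4 Id genes stacked for each library, and right, the share (%) of Smad1, Smad5 and Smad9 in their summed level per kb for each library. The Id total is 160 to 215 CPM per kb in controls and 105 to 146 in iSM KO, and the Smad1 share is larger in each iSM KO library than in each control.

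Smad3, the receptor-regulated SMAD of the TGF-β branch in this set, is on chromosome 9 from 63646767 to 63757994. Its levels were 35.6, 37.3 and 33.8 CPM in controls and 31.1, 32.5 and 34.3 CPM in iSM KO libraries. The groups overlapped through control 3 and iSM KO 3, and the log2 fold change of -0.13 (95% interval -0.31 to 0.05) had an FDR of 0.392. Smad2, the other TGF-β substrate, averaged 24.5 ± 0.56 CPM across controls and 23.6 ± 1.66 across iSM KO (SD, n = 3 each, edgeR FDR = 0.752).

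Smad4, the partner of both branches, was the steadiest member. It is on chromosome 18 from 73639009 to 73703780 and was measured at 57.7, 52.8 and 57.2 CPM in controls, then 57.4, 56.1 and 53.7 in iSM KO libraries. The log2 fold change was -0.0038 with a 95% interval of -0.17 to 0.16, which bounds its level between 89.1% and 112% of control. A difference of the size seen for Smad1 lies outside this interval.

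The inhibitory SMADs did not pass the threshold. Smad6, which preferentially limits BMP receptors, is on chromosome 9 from 63953076 to 64022059, 195 kb from Smad3. It was at 65.0, 77.3 and 58.7 CPM in controls and at 60.2, 54.8 and 67.9 CPM in iSM KO libraries, with a log2 fold change of -0.14 (95% interval -0.40 to 0.13, FDR = 0.536). Smad7, which limits TGF-β and BMP receptors alike, is on chromosome 18 from 75367529 to 75395935. It was at 91.4, 108 and 95.6 CPM in controls and at 122, 85.3 and 87.97 CPM in iSM KO libraries. The highest and the lowest Smad7 level of the 6 libraries were both in the iSM KO group, and the log2 fold change was 0.0026 (95% interval -0.31 to 0.32, FDR = 0.994). The library iSM KO 1 was highest of its group for Smad7 and for 6 of the 10 members in all, namely Id1, Id2, Id3, Smad1, Smad4 and Smad7.

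**Figure D3:**
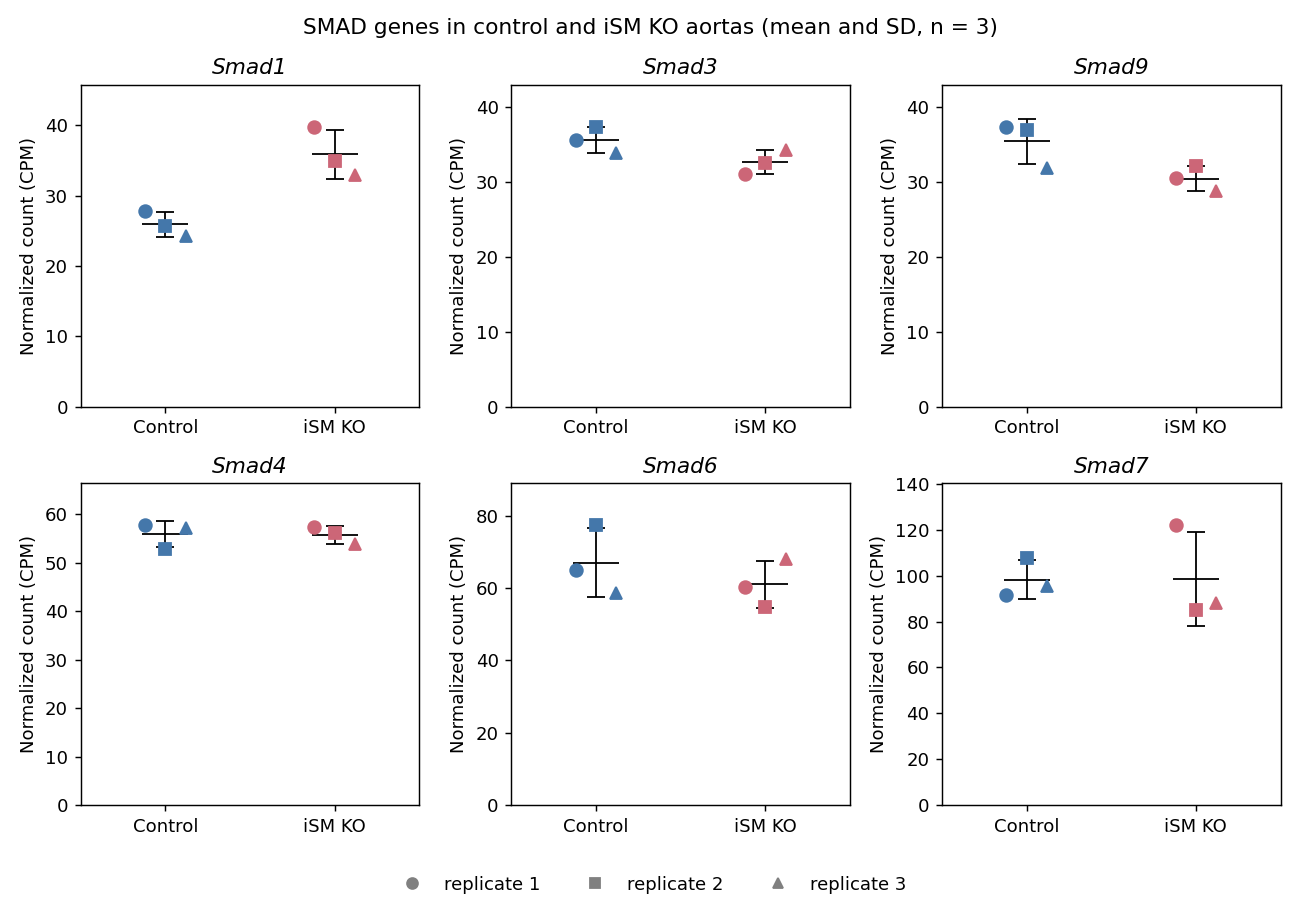
Normalized counts (CPM, linear axis from 0) of the 6 SMAD genes in 3 control and 3 iSM KO aortas, with 1 point per library and the mean and SD as bars. Smad1 is higher in each iSM KO library than in each control, and the groups of the other 5 genes overlap.

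**Figure D4:**
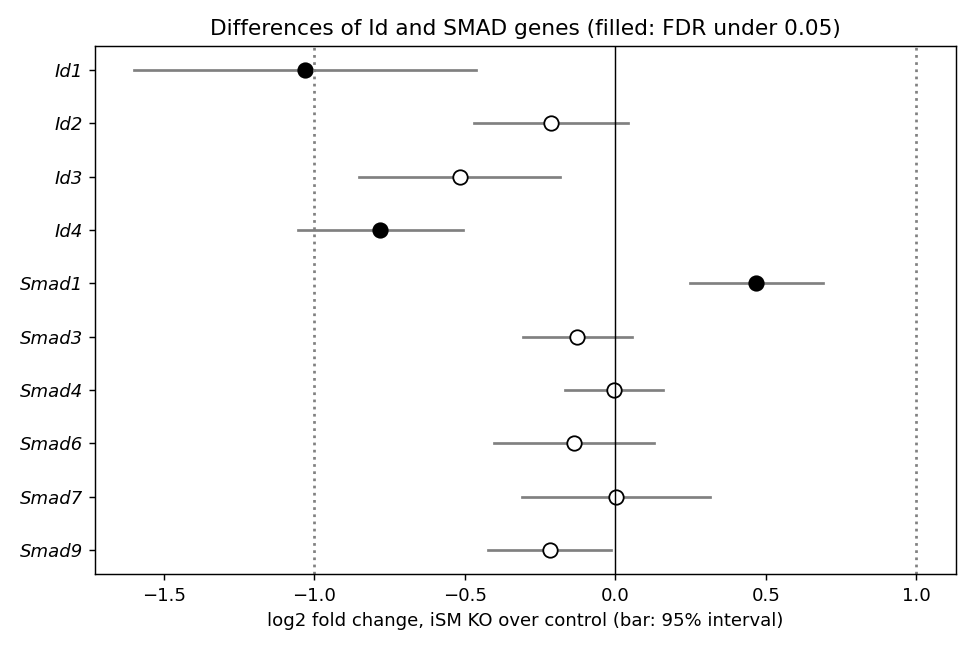
Log2 fold change of each of the 10 genes, iSM KO over control, with its 95% interval from the edgeR fit, filled where the FDR is under 0.05 and with dotted lines at a fold change of 2. Id1 and Id4 lie below 0 and Smad1 above it, the intervals of Id3 and Smad9 exclude 0 without passing the FDR, and the intervals of the other 5 include 0.

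Counting the members together, 8 had a log2 fold change below 0 and 2 above it, where 52.4% of all genes tested were below 0. In the lower direction 2 of 10 passed an FDR of 0.05, against 3.30% of all genes, and in the higher direction 1 of 10, against 4.26%. Groups did not overlap for Id1, Id3 and Id4 in the lower direction, against 13.0% of all genes, and for Smad1 in the higher direction, against 15.0%. The median log2 fold change was -0.65 for the Id genes and -0.065 for the 6 SMADs. With 10 genes these shares are coarse, and 1 gene moves each by 10 percentage points.

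Ordered by level per kb, Id1 and Id3 headed the controls at 72.5 ± 22.8 and 72.1 ± 8.38 CPM per kb, and their ranges overlapped. Id2 followed at 31.0 ± 3.59, then Smad7 at 21.7 ± 1.87 and Smad6 at 20.9 ± 2.96, whose ranges overlapped. Smad4 stood at 15.1 ± 0.72 and Id4 at 13.1 ± 1.97 CPM per kb, also with overlapping ranges. The lowest were Smad9 at 6.59 ± 0.57, Smad3 at 6.42 ± 0.32 and Smad1 at 4.14 ± 0.29 CPM per kb (SD, n = 3 for each gene). Smad1 was below Smad3 in every control, while Smad9 and Smad3 overlapped.

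In iSM KO aortas Id3 came first at 50.3 ± 10.7 CPM per kb, followed by Id1 at 35.4 ± 9.81 and Id2 at 26.7 ± 3.18, with overlapping ranges between neighbours. Id4 was at 7.64 ± 0.71 CPM per kb, below the range of Smad4, which it had overlapped in controls. Smad3, Smad1 and Smad9 ended the order at 5.89 ± 0.29, 5.73 ± 0.56 and 5.67 ± 0.30 CPM per kb (SD, n = 3 for each gene), close enough that their means cannot be ranked. The summed Id level, given without a test, was 189 ± 27.8 CPM per kb in controls and 120 ± 22.4 in iSM KO (SD, n = 3 each).

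Among 13996 genes with a mean of at least 1 CPM, likeness of pattern was measured as the root mean square difference of log2 CPM, centred over the 6 libraries. Nearest to Id1 were Gm7008, Bend5 and Gm10561, with differences of 0.16, 0.16 and 0.17, and all 3 were low, between 0.54 and 4.61 CPM over the 6 libraries. Id3 ranked 53 and Id4 ranked 176 in likeness to Id1, with differences of 0.33 and 0.39. In the other direction, at the same differences, Id1 ranked 4859 in likeness to Id3 and 4616 in likeness to Id4. Nearest to Id4 were Slc25a32, a mitochondrial folate carrier, Gm47547 and Slc22a3, an organic cation transporter, at 0.079, 0.082 and 0.083. Nearest to Smad1 were Mrps6, a mitochondrial ribosomal protein gene, at 0.019, Lpp, a focal adhesion gene of smooth muscle, at 0.045, and Tmem138 at 0.045.

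The partners that ID proteins bind did not pass the test. Of the E protein genes Tcf3, Tcf4 and Tcf12, 0 of 3 passed an FDR of 0.05, and their log2 fold changes were -0.097, -0.038 and 0.022 (FDR = 0.587, 0.874 and 0.899 from edgeR). The summed level of the 3 was 146 to 173 CPM in controls and 149 to 163 CPM in iSM KO libraries.

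Of 17 SMAD co-regulators and ubiquitin ligases, 2 rose and 0 fell. Beside this list and those below, 4.26% of all genes tested rose past the FDR, 3.30% fell and 52.4% lay below 0. Pmepa1, a TGF-β-induced membrane protein that sequesters receptor-regulated SMADs, rose from 303 ± 38.2 to 433 ± 38.2 CPM, and Tgif1, a SMAD corepressor, from 6.68 ± 1.48 to 10.8 ± 1.14 CPM (SD, n = 3 each, FDR = 0.0278 and 0.0414). The median of the list was 0.091 on the log2 scale. Bambi, a pseudoreceptor induced by BMP, averaged 17.2 ± 3.82 CPM across controls and 24.8 ± 0.69 across iSM KO (SD, n = 3 each) and missed the threshold (edgeR FDR = 0.0647). It is in both the co-regulator and the BMP-responsive list and was singled out after its values were seen.

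Of 10 BMP-responsive genes tested outside the Id and SMAD genes, 0 passed an FDR of 0.05 in edgeR's test, 5 lay below 0 and 5 above, and the median was 0.033. The TGF-β-responsive list of 12 genes had 2 that rose, Ltbp2 and Pmepa1, and 1 that fell, Snai2, a repressor of epithelial genes, from 6.98 ± 1.68 to 2.96 ± 0.065 CPM (SD, n = 3 each, log2 fold change -1.24, FDR = 0.00613). Its median was 0.062.

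Upstream of the SMADs, 1 of 13 receptor genes passed the FDR, beside 7.56% of all genes tested. It was Acvr1c, which was between 0.17 and 1.20 CPM. Of the 13, 9 lay below 0, beside 52.4% of all genes tested, with a median of -0.25. Of 14 ligand genes tested, Tgfb2 and Inhbb, a subunit of activin B, rose and 0 fell, with log2 fold changes of 1.04 and 0.88 (FDR = 0.00260 and 0.0444). Of 16 genes tested for extracellular BMP and TGF-β modulators, mostly antagonists but including the BMP co-receptors Rgma and Rgmb, 6 rose and 0 fell, with a list median of 0.19. Chrdl1, a chordin-like protein that binds BMPs, rose from 20.9 ± 4.24 to 237 ± 42.1 CPM (SD, n = 3 each), a log2 fold change of 3.50. Fst, which binds activins, and Nbl1, a secreted BMP antagonist, rose by 3.34 and 0.57 on the log2 scale (FDR = 7.45e-05 and 0.00286 from edgeR). A link between these modulators and the Id genes was not tested.

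Immediate early genes respond to tissue handling as well as to growth factors, and Id1 and Id3 are among the genes that serum induces rapidly. Of 22 on the list, 4 fell and 1 rose past the FDR, beside 3.30% and 4.26% of all genes tested. Below 0 lay 17 of the 22, beside 52.4% of all genes tested, and the median was -0.54. Dusp1, a MAP kinase phosphatase, fell from 227 ± 79.7 to 93.2 ± 13.2 CPM (SD, n = 3 each). Ier2 and Fos, an AP-1 subunit, fell by 0.67 and 2.85 on the log2 scale, and the stress sensor Gadd45b rose by 0.61. Fos was uneven among controls, at 50.3, 213 and 39.3 CPM in controls 1 to 3. In iSM KO libraries 1 to 3 it was at 13.9, 14.4 and 13.9 CPM. The summed level of the list was 1650, 3199 and 1649 CPM in controls 1 to 3 and 1572, 1335 and 1432 CPM in iSM KO libraries 1 to 3. Within the groups the sum was highest in control 2 and in iSM KO 1. Id1 and Id3 were highest in control 3 and in iSM KO 1. The part of this list in the Id values was not tested.

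Among markers of other cells, 7 adipocyte genes and 1 fibroblast gene passed the FDR. Of 9 adipocyte markers tested, 7 fell and 0 rose, and the summed list ran from 35.2 to 226 CPM in controls and was 16.7, 13.3 and 19.5 CPM in iSM KO libraries 1 to 3. In this sum control 1 was lowest of the controls, and control 2 and iSM KO 3 were highest of their groups. Fabp4, a fatty acid carrier, and Cidea, a lipid droplet protein of brown fat, had the smallest FDR of that list. Of 10 endothelial markers, 0 passed the FDR in edgeR's test, 10 lay below 0, and the sum was 967, 1140 and 588 CPM in controls and 324, 532 and 872 CPM in iSM KO libraries. Smad3 and Smad6 were both highest in control 2 and in iSM KO 3, the libraries with the highest endothelial sum of each group. Smad3 followed the order of that sum in both groups, and Smad6 in controls only. These orders are not particular to the endothelial list. The fibroblast and macrophage sums had the same order of iSM KO libraries, and the immediate early sum had the same order of controls. Fibroblast markers summed to 173 to 372 CPM in controls and 139 to 208 CPM in iSM KO libraries, with 1 of 7, Clec3b, lower past the FDR, 7 of 7 below 0 and a median of -0.70. Macrophage markers summed to 28.0 to 33.8 CPM in controls and 11.5 to 32.6 CPM in iSM KO libraries, and 0 of 7 passed the FDR in edgeR's test, with 7 of 7 below 0 and a median of -0.60. Lymphocyte markers were at or below 0.67 CPM in sum, Schwann cell markers at 4.92 to 10.8 CPM and cardiac and skeletal muscle markers at 3.41 to 6.39 CPM, none of the tested genes among them passing the FDR. No defining marker of any list was at 0 in all 6 libraries. Of 8 smooth muscle markers, Myocd and Des rose, by 0.65 and 1.24 on the log2 scale, and 0 fell. What part these cells have in the Id and SMAD values was not tested, and orders of 3 libraries in a group are too coarse to tell it.

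With 1 library omitted at a time, the calls held to different degrees. A fit with fewer mice has less power, so a lost call need not mean a smaller difference. Id1 passed the FDR in 2 of 6, without Control replicate 1 or iSM KO replicate 1, with log2 fold changes between -1.28 and -0.84. Its FDR was 0.0855 without Control replicate 2, 0.130 without Control replicate 3, 0.156 without iSM KO replicate 2 and 0.0982 without iSM KO replicate 3. Id4 ranged from -0.88 to -0.67 and passed in 6 of 6, and Smad1 ranged from 0.38 to 0.53 and passed in 3 of 6. Id3 ranged from -0.71 to -0.42 and passed in 1 of 6. Id2, Smad3, Smad6 and Smad9 stayed below 0 and passed in 0 of 6, while Smad4 and Smad7 took both signs.

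**Figure D5:**
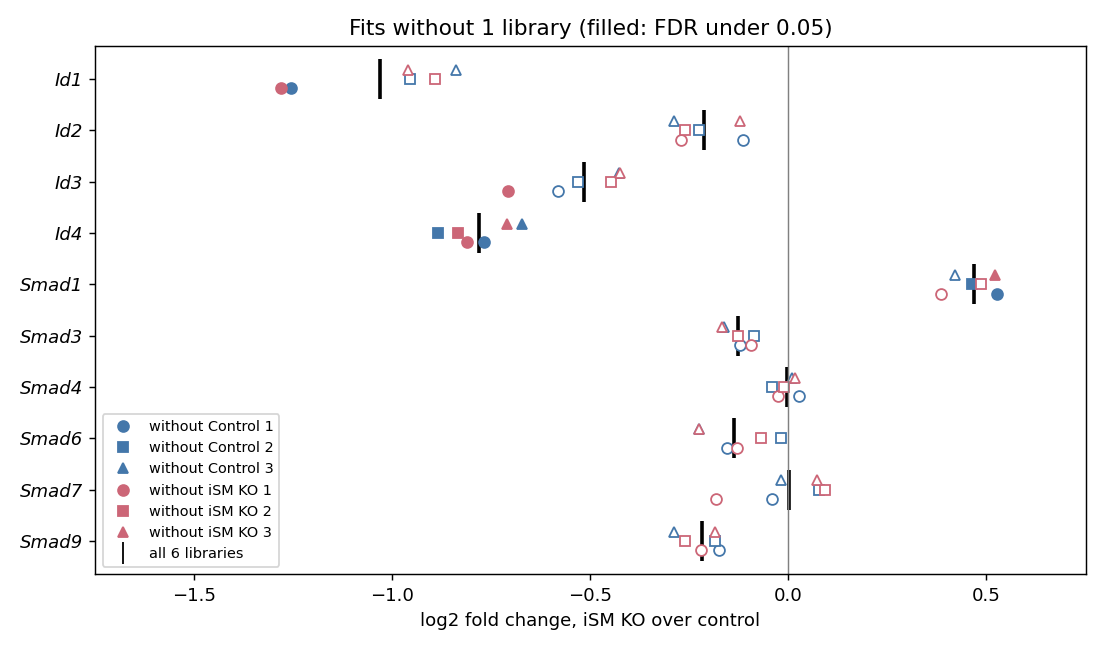
Log2 fold change of each gene, iSM KO over control, in all 6 libraries (black bar) and with 1 library left out (blue without a control, red without an iSM KO library, symbols for replicates 1 to 3, filled where the FDR is under 0.05). Id4 is filled in each fit, Id1 in 2, Smad1 in 3 and Id3 in 1, and Smad7 moves most when iSM KO 1 is left out.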

How the data were processed

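Ribosomal RNA was depleted, and paired-end reads were mapped and quantified by the authors with Illumina DRAGEN on the mouse reference of Ensembl release 101 (mm10). The authors deposited estimated counts per gene, neither normalized nor filtered, of which 10.9% to 12.2% per library are not whole. The treatment of reads with several matching genes and the use of strand are not given in the sources used here. Columns were matched to samples by name.

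Counts were rounded, and a gene was tested if its count exceeded 10 in every library of either group, the filter of the study. Depth was 24911609 to 40460467 counts per library. All 6 libraries were fitted with edgeR 4.0.16 in R 4.3.3 (TMM, glmQLFit, glmQLFTest, no covariates), with Benjamini-Hochberg adjustment over the 16565 genes tested. The study used DESeq2. Called changed means an FDR under 0.05 and a fold change over 2. The 95% intervals come from the same fit and are not adjusted. For a single gene, exact permutation of 3 against 3 mice gives no p below 0.1. P-values weigh the difference between the groups against the spread between these mice, which the fit estimates with information shared across genes.

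Lengths and positions are from GENCODE release M21 (GRCm38), and promoters from RefSeq (GRCm38.p6), with a window for 7 of the 10 genes. Copies were sought with blastn 2.17.0 (at least 95% identity over 100 bp). Short repeat-like matches of Smad9 transcripts to 5 other genes were not pursued. No pair of libraries within a group was alike within sampling noise.

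The members and gene lists were chosen with earlier results of these data known, so list counts are not independent evidence. Named are the 10 members, Prdm16, at most 4 genes per pathway list and 2 per marker list by smallest FDR among those under 0.05, and the 3 genes nearest in pattern to each member past the FDR. A gene that this rule would name is not reported here. Bambi, and the E protein, Smad2 and Smad5 values of short lists, were named outside this rule after values were seen, and the word CAGAC was added to the planned motifs. Alternatives were DESeq2 1.42.0, limma-voom (limma 3.58.1) with and without quality weights, other scaling factors, other filters, omission of 3 abundant small RNAs, the replicate number as a block, glmTreat and each library left out.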

Additional observations from a re-analysis of the deposited data

How the results depend on the processing

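Of the 10 genes, 3 passed an FDR of 0.05 with all 6 libraries, and 1 to 3 did so in the fits that left out 1 library. The number called changed was 1, was 0 to 1 with 1 library left out, and was 0 under glmTreat against a fold change of 2, which left 95 genes of the whole table instead of 461. With 1 library left out, 516 to 1402 genes of the table had an FDR under 0.05 (1252 with all), 290 to 528 were called changed, and 4 to 7 members had groups that did not overlap (4 with all). A group with 1 library fewer has fewer values that can overlap, so the non-overlap counts of these fits cannot be set against that of all 6 libraries. The share of all genes without overlap was not taken for these fits. With all 6 libraries and upper-quartile factors, 6 members had groups that did not overlap. The share of all genes was not taken with these factors either, so this count has no background beside it. What caused the other shifts was not tested.

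Same-numbered libraries did not deviate together (correlations across genes of -0.13, -0.045 and -0.11), and 0 of 3 controls correlated best with the iSM KO library of its number. These values show no pairing by number, but 3 pairs cannot exclude one, and the labels do not say what the numbers stand for. With the replicate number as a block, 772 genes had an FDR under 0.05 and 0 members were called changed, Id1 standing at -1.02 with an FDR of 0.105, and the block put Smad7 at -0.014.

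Smad4 changed sign to 0.0015 with DESeq2, 0.0013 with DESeq2 size factors in edgeR and 0.0020 without the filter, and spanned -0.041 to 0.026 with 1 library left out. Smad7 changed sign to -0.014 with limma-voom, -0.061 with quality weights and -0.014 with upper-quartile factors, and spanned -0.18 to 0.092 with 1 library left out. Id3 passed the FDR with DESeq2, quality weights and no filter. Id4 passed in 15 of 15 alternatives, Smad1 in 12 and Id1 in 10. With 3 mice a group and the spread seen for Id1, Id3 and Smad7, modest differences of these genes could not be settled.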
